A study of Mus musculus with 12 samples.

Results

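A set of 9 noncoding transcripts was followed through RNA-seq and ribosome footprinting of mouse thymocytes. They were 2 nuclear long noncoding RNAs, Malat1 and Neat1, and 7 host genes of small nucleolar RNAs (snoRNAs), Gas5, Snhg1, Snhg3, Snhg5, Snhg6, Snhg8 and Snhg12. The members were taken as a list of gene symbols and found by Ensembl ID in both count tables, 9 of 55335 gene rows, and all 9 passed the filter on low counts in every comparison. Thymocytes came from the thymus of 6-week-old mice, 3 labelled WT and 3 labelled miR-181a/b-1 KO, a loss of a pair of clustered microRNA genes. Each genotype gave 3 RNA-seq and 3 footprint libraries, 12 in 4 groups, and cells of both genotypes went into cycloheximide at 0.1 mg/ml, a drug that stalls ribosomes, after a 70 µm strainer. The labels give no mouse strain, no sex and no sorting of thymocyte stages, so each library may be a mixture of stages. They do not describe the knockout allele or tie an RNA-seq library to a footprint library of the same animal.

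Malat1 lies in nuclear speckles and Neat1 is the scaffold of paraspeckles, so both are known as RNAs that stay in the nucleus, away from ribosomes. A snoRNA host gene is spliced to release snoRNAs from its introns, which guide the chemical modification or cleavage of ribosomal RNA. The spliced exons of several hosts, Gas5 and Snhg1 among them, reach the cytoplasm, associate with ribosomes over short reading frames and are degraded by nonsense-mediated decay. Many host transcripts begin with a pyrimidine run, like the mRNAs of ribosomal proteins, known as a 5′ terminal oligopyrimidine (TOP) sequence. A footprint is any RNA fragment of the selected size that survives nuclease, so a footprint read in a noncoding transcript does not by itself show translation.

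The microRNAs whose genes were removed are shown first because they define the knockout. Both mature 5p strands share the seed, bases 2 to 8, given in capitals. The sequences are RefSeq entries on GRCm38.p6, for miR-181a-5p at chr1:137966468-137966490 and for miR-181b-5p at chr1:137966650-137966673, both on the plus strand.
mmu-miR-181a-5p: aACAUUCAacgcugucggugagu
mmu-miR-181b-5p: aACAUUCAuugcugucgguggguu

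The start sites are shown because a pyrimidine run there is a feature that the choice of members did not use. Each sequence holds 12 bases before and 18 bases from the annotated RefSeq start on GRCm38.p6, read along the sense strand. Capitals mark runs of at least 6 bases of C or T, searched on the sense strand only. The windows were chr19:5802655-5802684 (minus) for Malat1, chr1:161035154-161035183 (plus) for the second entry of Gas5, chr19:8723475-8723504 (plus) for Snhg1, chr4:132353669-132353698 (minus) for Snhg3, chr9:88522880-88522909 (minus) for Snhg5, chr3:123508319-123508348 (minus) for Snhg8 and chr4:132308666-132308695 (plus) for Snhg12.
Malat1: cgggctctgcgtcaggcattcaggcagcga
Gas5: cgccatctcagCCTTTCggagctgtgcggc
Snhg1: gttcttgtcggcctcaTTTTTCCTTgttcg
Snhg3: tcgaccacgcctgacttccgggcgttactt
Snhg5: ctgcggtgaaccgggctcgTTCTTTTacga
Snhg8: ccgttcagaagTCTCTTTggctgcgatccg
Snhg12: cgttctcagTCCTTTCTCgcttcatccgcg

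A run was present in 5 of the 6 host genes that had an entry (83.3%), against 32.2% of the 27025 genes with an entry. It could lie anywhere in the window, so it does not by itself show that a transcript begins with a run. Its offset from the annotated start was -3 in Snhg12, -1 in Gas5 and Snhg8, 4 in Snhg1 and 7 in Snhg5. The share was 60.0% over 25 TOP mRNAs outside the snoRNA hosts, 50.0% over 12 other noncoding hosts and 40.9% over 22 protein-coding hosts. The Malat1 and Snhg3 windows held no such run, and neither did the first of the 2 Gas5 entries. With 6 host genes the share is a description of these windows, and Neat1 and Snhg6 are named without a sequence.

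Reads in genes numbered 4479182 to 8180286 per RNA-seq library and 4069968 to 17859770 per footprint library. Reads outside any annotated feature made up 50.9% to 57.1% of an RNA-seq library and 5.32% to 6.39% of a footprint library. Levels below are counts scaled to the reads in genes (CPM), with factors from the trimmed mean of M values (TMM) within each assay. Replicate libraries of 1 group differed by more than counting error, the chi-square statistic being 3.41 to 12.9 times its degrees of freedom. In the deposited counts, libraries of WT and KO with the same number deviated from their group means in opposite directions. The SDs, intervals, p-values and FDRs may therefore not measure the spread between mice. The 11 thymocyte markers, Cd3e, Cd4, Cd8a and Rag1 among them, summed to 13513 to 15561 CPM in RNA-seq and 22759 to 24218 CPM in footprints, and none was at 0. Among markers of other cells, 7 erythroid genes summed to 76.3 to 91.4 CPM in WT RNA-seq and 46.4 to 58.8 in KO, and 5 B cell genes to 12.2 to 17.2 and 17 to 23 CPM. The 6 fibroblast and endothelial genes summed in RNA-seq to 207 to 211 CPM in WT and 234 to 240 in KO. Pecam1 made up most of that sum, at means of 170 CPM in WT and 203 CPM in KO. Each of the other fibroblast and endothelial genes had a lower RNA-seq mean in KO. The 6 thymic epithelial genes summed in RNA-seq to 48 to 52.9 and 41.1 to 45, and the 6 myeloid genes to 57.9 to 65.7 and 57.6 to 65.9. In footprints the WT and KO sums overlapped for each of these lists of other cells. They were 40.5 to 76.3 and 35.1 to 75 CPM for the erythroid genes and 43.6 to 57.3 and 56 to 75.2 CPM for the B cell genes. The part of these cells in the values below was not tested.

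The miR-181a-1 gene, Mir181a-1, was counted at 132 to 167 CPM in WT footprint libraries and 0.462 to 1.04 CPM in KO footprint libraries. In RNA-seq it was at 0.961 to 3.96 CPM in WT libraries and 2.33 to 5.11 CPM in KO libraries, 7 to 41 reads per library, with overlapping groups. The row therefore separated the footprint libraries by label and not the RNA-seq libraries, whose genotype rests on their titles. In bulk libraries, fewer cells of a type and less of an RNA per cell cannot be told apart.

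Both nuclear RNAs were far less represented in footprints than in RNA-seq, and the hosts were less so by a much smaller factor. Relative to RNA-seq, footprints of WT thymocytes were 35.3-fold lower for Neat1 and 8.58-fold lower for Malat1. Among the hosts the fall ran from 3.27-fold for Snhg12 to 2.07-fold for Snhg6, while Snhg3, at 1.26-fold lower, missed the threshold. The location of each RNA set the 2 classes, and the footprint to RNA ratio was named with the list as the measure that separates them, so the separation is given as a description with no test.

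Malat1 (ENSMUSG00000092341.3), the RNA of nuclear speckles, stood at 24345, 22127 and 21716 CPM in the WT RNA-seq libraries and at 2385, 2820 and 2947 CPM in the WT footprint libraries. In KO it stood at 24290, 26831 and 27005 CPM in RNA-seq and 3642, 3119 and 2931 CPM in footprints. Every RNA-seq library lay above every footprint library, with a wide gap between them in both genotypes. Malat1 alone took 2.23% to 2.65% of the reads in genes in RNA-seq and 0.238% to 0.363% in footprints. The WT means were 22729 ± 1414 (SD, n = 3) and 2717 ± 295 CPM, a log2 ratio of footprints to RNA of -3.10 (95% interval -3.31 to -2.89, FDR = 1.85e-12 by edgeR's quasi-likelihood test with Benjamini-Hochberg adjustment over 14755 genes).

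Neat1 (ENSMUSG00000092274.3), the scaffold of paraspeckles, stood at 864, 788 and 944 CPM in WT RNA-seq and at 26.2, 22.2 and 27.2 CPM in WT footprints. In KO it stood at 803, 885 and 721 CPM in RNA-seq and 25.9, 30.2 and 24.2 CPM in footprints. The assays were far apart in both genotypes, and WT and KO overlapped within each. Its log2 ratio was -5.14 in WT (-5.38 to -4.91, edgeR FDR = 1.01e-13), the lowest of the 9 transcripts. In RefSeq, Malat1 and Neat1 lie on chromosome 19 with 1 gene between them, Mascrna, the small RNA cleaved from the end of Malat1. The ratio of Neat1 was nevertheless 2.04 log2 units below that of Malat1, and the intervals did not overlap.

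**Figure D1:**
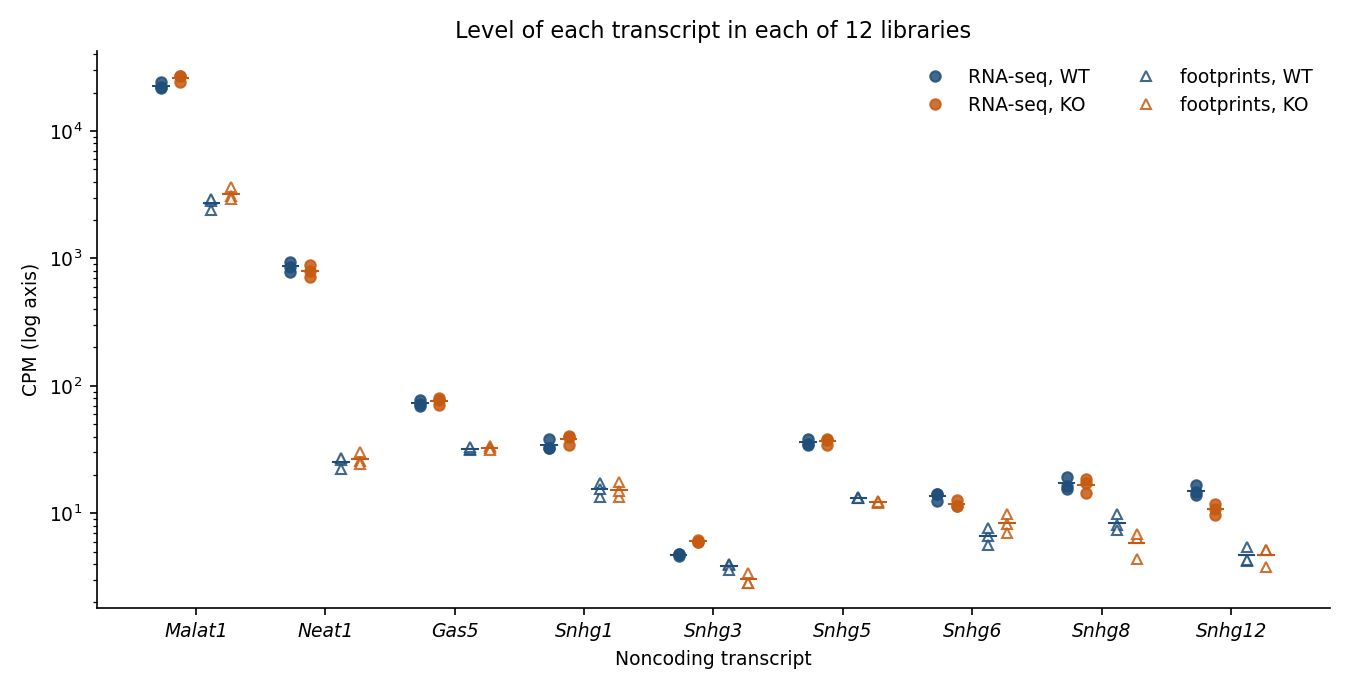
Level of each transcript (CPM, log axis) in each of the 12 libraries, with filled circles for RNA-seq, open triangles for footprints, blue for WT, orange for KO and a bar at each group mean. Malat1 and Neat1 drop furthest from circles to triangles, while WT and KO lie close together within each assay.

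Gas5 (ENSMUSG00000053332.13), a host of box C/D snoRNAs named for its build-up in growth-arrested cells, had the most RNA-seq reads of the hosts. It stood at 71.9, 77.7 and 69.3 CPM in WT RNA-seq and at 31.2, 32 and 32.9 CPM in WT footprints. The assays did not overlap, and the footprint libraries lay close together. The log2 ratio was -1.23 (-1.40 to -1.05), 2.34-fold lower in footprints (edgeR FDR = 3.02e-09).

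Snhg1 (ENSMUSG00000108414.1) hosts a cluster of box C/D snoRNAs and is a textbook target of nonsense-mediated decay. It stood at 38, 32.5 and 32.7 CPM in WT RNA-seq and at 13.3, 17.2 and 15.6 CPM in WT footprints, with no overlap between the assays. Its log2 ratio of -1.20 (-1.45 to -0.94) differed from that of Gas5 by less than the width of either interval. Snhg5 (ENSMUSG00000097195.9), the host of the Snord50 snoRNAs, stood at 34.5, 35.2 and 38.4 CPM in WT RNA-seq and at 13.2, 13.4 and 13.1 CPM in WT footprints. Its log2 ratio was -1.49 (-1.69 to -1.28), 2.80-fold lower in footprints. The footprint SD of Snhg5 in WT was 0.137 CPM, against 0.956 CPM that counting alone would give. Over the 36 combinations of a transcript and a group, the SD lay below the counting value in 14.

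Snhg12 (ENSMUSG00000086290.9), a host of both box H/ACA and box C/D snoRNAs, had the lowest ratio of the hosts in WT. It stood at 16.6, 13.8 and 14.8 CPM in WT RNA-seq and at 4.20, 5.48 and 4.33 CPM in WT footprints, a log2 ratio of -1.71 (-2.03 to -1.39). Snhg8 (ENSMUSG00000104960.1), the host of Snora24, stood at 16.5, 19.3 and 15.6 CPM in WT RNA-seq and 8.05, 7.43 and 9.89 CPM in WT footprints, a log2 ratio of -1.08 (-1.38 to -0.78). Snhg6 (ENSMUSG00000098234.7), the host of Snord87, stood at 14.2, 14.2 and 12.5 CPM in WT RNA-seq and 6.67, 7.60 and 5.65 CPM in WT footprints, a log2 ratio of -1.05 (-1.36 to -0.75). In all 3 the footprint libraries lay below the RNA-seq libraries, and the intervals of Snhg8 and Snhg6 overlapped almost completely.

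Snhg3 (ENSMUSG00000085241.7) hosts the U17 snoRNAs, Snora73a and Snora73b, which take part in cleavage of the ribosomal RNA precursor. It stood at 4.75, 4.59 and 4.8 CPM in WT RNA-seq and at 3.97, 3.91 and 3.58 CPM in WT footprints, 30 to 35 and 38 to 70 reads per library. The assays did not overlap, yet the log2 ratio of -0.33 (-0.70 to 0.04) did not pass the test (edgeR FDR = 0.0871). Its interval lay above that of Snhg6, the next in the order. Both sets of libraries spread less than counting predicts, with an SD of 0.114 CPM in WT RNA-seq where counting alone would give 0.826 CPM.

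The ratio was lower in footprints for 8 of the 9 transcripts in WT at an edgeR FDR under 0.05, where 51.6% of 14755 genes were called lower. In KO it was lower for 9 of 9, where 47.8% of genes were called lower. RNA-seq and footprint libraries did not overlap for any of the 9 in either genotype, as for 86.0% of genes in WT and 83.7% in KO. A call or a lack of overlap is therefore common among all genes. From lowest to highest in WT the order was Neat1, Malat1, Snhg12, Snhg5, Gas5, Snhg1, Snhg8, Snhg6 and Snhg3. Neighbouring intervals were separate between Neat1 and Malat1, between Malat1 and Snhg12 and between Snhg6 and Snhg3, and overlapped between all other neighbours.

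**Figure D2:**
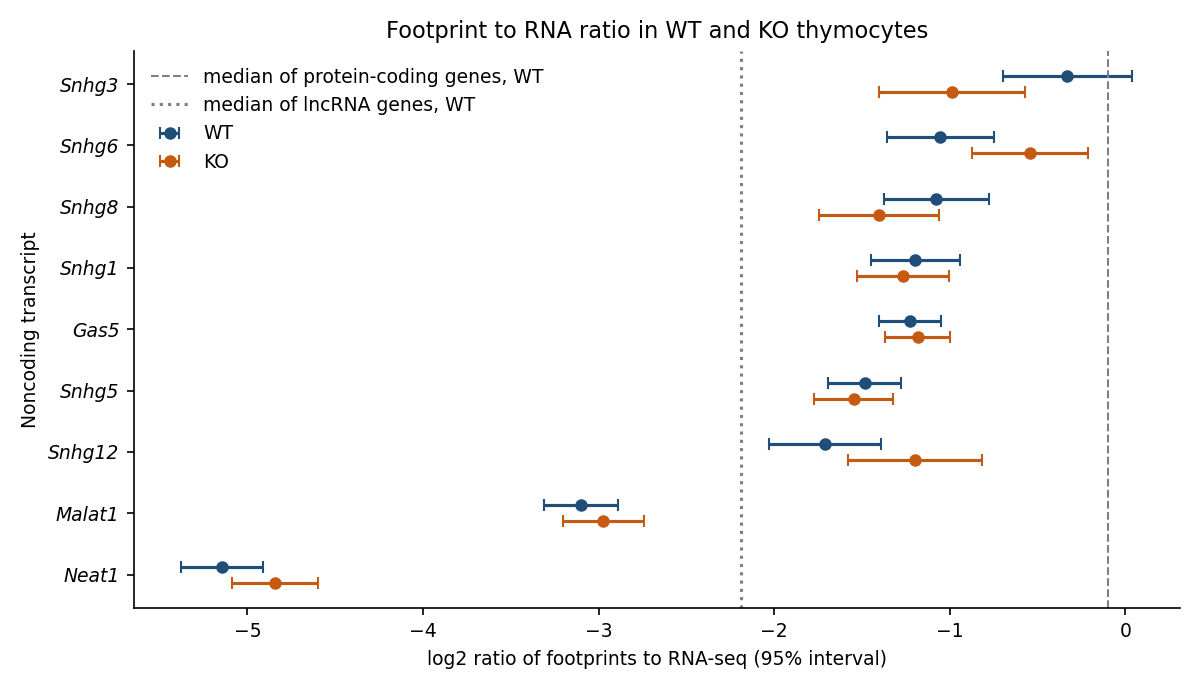
Log2 ratio of footprints to RNA-seq for each transcript (point) with its 95% interval (bar), in WT (blue) and KO (orange). Dashed and dotted lines mark the WT medians of protein-coding (-0.10) and lncRNA (-2.19) genes, and the 7 hosts lie between these medians in both genotypes while Malat1 and Neat1 lie below both.

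The KO libraries gave Neat1 and Malat1 the same places at the low end. Their log2 ratios in KO were -4.84 (-5.09 to -4.60) and -2.97 (-3.20 to -2.74), 28.7-fold and 7.86-fold lower in footprints. The hosts followed in the order Snhg5 at -1.55, Snhg8 at -1.40, Snhg1 at -1.27, Snhg12 at -1.20, Gas5 at -1.18, Snhg3 at -0.99 and Snhg6 at -0.54. Every neighbouring pair of hosts overlapped, and the gap between Malat1 and the next host was 1.43 log2 units. The median over the 7 hosts was -1.20 in both genotypes.

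A ratio of 0 is set by the scaling of the assays, and the distances between transcripts do not depend on it. With TMM factors over both assays together, the median of all genes moved up by 0.32 in WT and 0.23 in KO, and the split of called genes that were higher moved from 39.4% to 48.8% in WT. Malat1 was then at -2.78 and Neat1 at -4.82 in WT, with the host median at -0.88. Snhg3 in WT, at -0.33 with factors within each assay, was then at -0.01 (edgeR FDR = 0.988). The ratio of Snhg6 in KO, -0.31 under that scaling, no longer passed the test (edgeR FDR = 0.0724).

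Counts of a pair of transcripts within 1 library need no scaling between assays. For 1 read of Gas5 there were 285 to 381 reads of Malat1 in the RNA-seq libraries and 76.4 to 109 in the footprint libraries. For Neat1 there were 9.05 to 13.6 reads per Gas5 read in RNA-seq and 0.696 to 0.924 in footprints. The assays did not overlap for either pair. Reads were not corrected for transcript length, so the values compare the assays and not the levels of the genes, and they restate the ratios above without the scaling.

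Against protein-coding and lncRNA genes, the hosts occupied the lower part of the protein-coding range and the upper part of the long noncoding range. All 14755 genes tested also include 1833 without a RefSeq match, with a median log2 ratio of -4.59 in WT. Over all of them, Neat1 lay at percentile 6.1 and Malat1 at 13.1 in WT, and the hosts from 23.4 (Snhg12) to 50.8 (Snhg3). The 11278 protein-coding genes had a median log2 ratio of -0.10 in WT, and 44.4% were called lower in footprints. The 481 genes of the RefSeq class lncRNA, which holds these 9 as well, had a median of -2.19, and 89.2% were called lower. Below Neat1 lay 0.257% of protein-coding genes and 4.16% of lncRNA genes. Below Malat1 lay 1.98% and 24.1%, so that the ratio of Malat1 was low for a coding gene and within the common range of lncRNA genes. For the hosts these shares ran from 10.8% of coding and 64.2% of lncRNA genes (Snhg12) to 43% and 90.4% (Snhg3). In KO, 1.86% of coding genes lay below Malat1 and between 11.7% (Snhg5) and 33.8% (Snhg6) below the hosts.

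**Figure D3:**
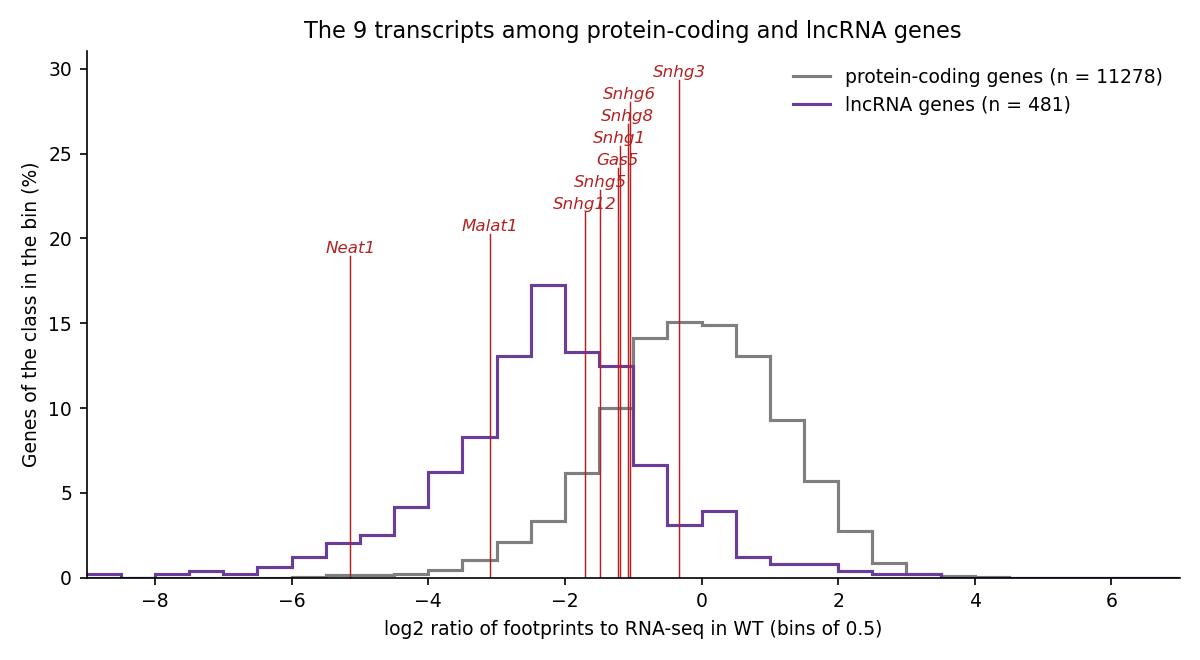
Share of protein-coding (grey) and lncRNA (purple) genes in bins of the WT log2 ratio of footprints to RNA-seq, with a red line at the ratio of each of the 9 transcripts (line height has no meaning). The 7 hosts fall between -1.71 and -0.33, where the classes overlap, and Neat1 at -5.14 falls in the low tail of both.

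Related gene lists placed the members in context. These lists were drawn up with results of these data known, and their counts read against the 51.6% of all genes called lower and 33.5% called higher. Of 13 other nuclear noncoding RNAs, 7 were tested in WT and 7 were lower, with a median log2 ratio of -3.09. The lowest was Rn7sk, the 7SK RNA that holds back transcription elongation, at -4.97, and the highest Airn, the antisense RNA of the imprinted Igf2r locus, at -1.78. Of 9 other noncoding snoRNA hosts tested, 7 were lower, with a median of -1.65, from Snhg11 at -3.49 to Snhg9 at -0.19, which did not pass the test (edgeR FDR = 0.495).

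Genes that code for protein and carry snoRNAs in their introns were lower in 21 and higher in 6 of 31, with a median of -0.88. The ends of that list were Rpl13 at -5.18 and Rpl7a at 4.57, both ribosomal proteins with processed copies elsewhere in the genome, so that reads may be split between copies and these values are uncertain. The TOP mRNAs without snoRNAs were lower in 27 and higher in 6 of 34, with a median of -1.02, from Rps16 at -3.98, uncertain for the same reason, to Eef1d, an elongation factor subunit, at 0.76. The same limit may reach other ribosomal protein genes, so the counts and medians of both lists are uncertain too. Over the RNA-seq libraries, Rpl23a had 57 reads and Rps6 had 88, while Rpl4 had 23869. Over all 14755 genes the median was -0.37. In KO the medians were -1.20 for the 7 hosts, -1.69 for the other noncoding hosts, -0.86 for the protein-coding hosts, -0.66 for the TOP mRNAs and -0.27 over all genes.

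**Figure D4:**
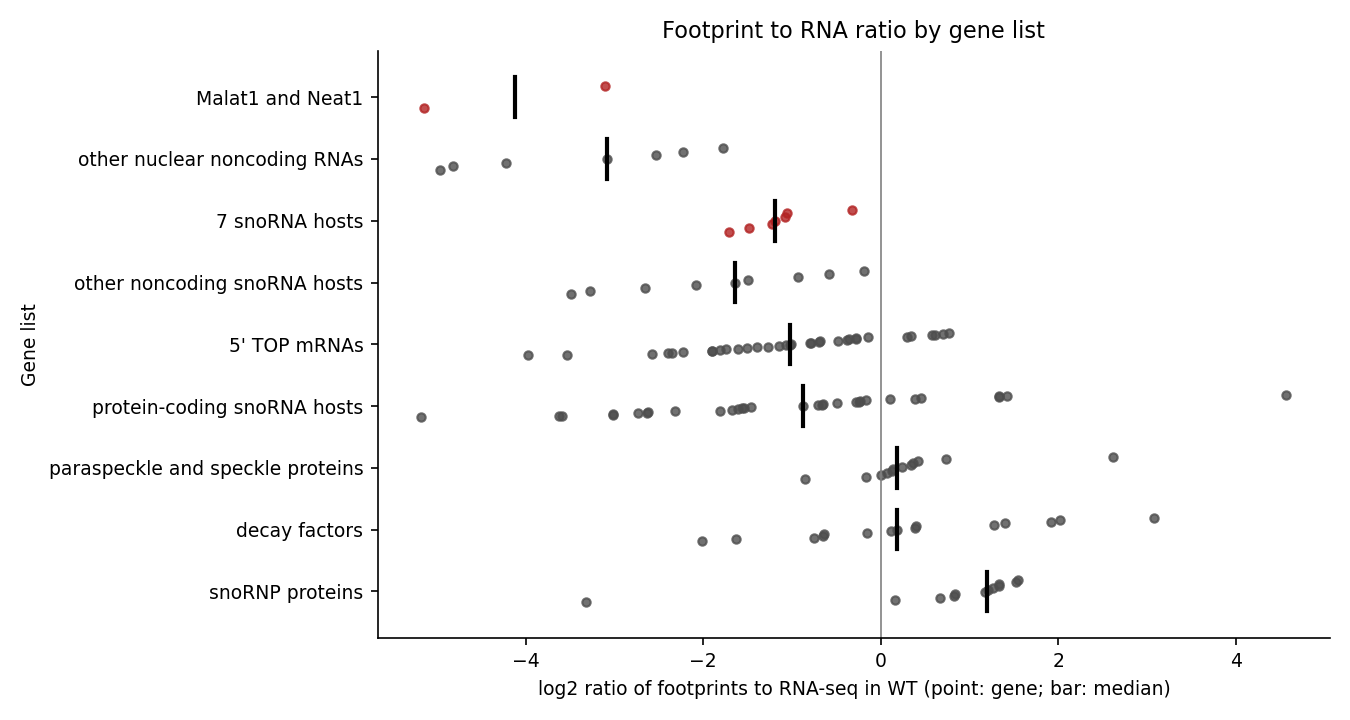
WT log2 ratio of footprints to RNA-seq for each tested gene (point) of each list, with a bar at the list's median and the 9 transcripts in red. The medians run from -4.12 for Malat1 and Neat1 to 1.19 for the snoRNP proteins, with the 7 hosts at -1.20 and the 5′ TOP mRNAs at -1.02. Points of ribosomal protein genes are uncertain, since their reads may be split between copies.

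Genes with a pattern like that of a member were named by the smallest root mean square difference in gene-centred log2 CPM over the 12 libraries, among 8136 candidates. For Malat1 the nearest were Mbd5 (0.111), Btbd9 (0.12), Pigm (0.127), Ino80d (0.14) and Tmcc1 (0.143). For Gas5 they were Kcmf1 (0.0502), Sbno1 (0.0517), Slc35b3 (0.0542), Fem1b (0.0591) and Xpo6 (0.0592). These genes are protein-coding in RefSeq. The WT log2 ratios of those near Malat1 ran from -3.17 for Btbd9 to -2.86 for Pigm, which the choice by likeness largely fixed.

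Of 29 snoRNA symbols listed for the hosts, 14 were found in the counts, in 16 rows, and these rows were largely without reads. Of the 16 rows of such snoRNAs, 13 had no read in any of the 12 libraries, which allows up to 0.0754 CPM over the RNA-seq libraries and 0.0393 CPM over the footprint libraries for reads counted this way. Reads with several alignments or in overlapping genes were set apart by the counting, so a row at 0 does not show that the snoRNA was absent. The rows with reads were Snora73a and Snora73b, within Snhg3, and Snord87, within Snhg6.

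Snord87, a box C/D snoRNA, stood at 45.6, 36.7 and 39.8 CPM in WT RNA-seq and at 167, 132 and 191 CPM in WT footprints. It was thus higher in footprints, with a log2 ratio of 1.97 in WT and 1.18 in KO, while its host Snhg6 was lower in footprints in both. Snora73b, a box H/ACA snoRNA, stood at 251 to 318 CPM in RNA-seq and 146 to 287 CPM in footprints over all libraries, with a log2 ratio of -0.31 in WT. Neither RNA is translated, so the footprint libraries held reads of RNAs outside translation.

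The KO comparison asked whether loss of miR-181a/b-1 went with a change in these transcripts. In RNA-seq, 0 of the 9 passed an FDR of 0.05 by edgeR or by DESeq2, where edgeR called 6.91% of 13652 genes, and 2 had an unadjusted p under 0.05. In footprints 0 of 9 passed by either tool, where edgeR called 17.6% of 13509 genes, and 2 had an unadjusted p under 0.05. For translation, tested as an interaction of genotype and assay, 0 of 9 passed by either tool, where edgeR called 0.156% of 14755 genes, and 2 had an unadjusted p under 0.05. Over all genes, 23.8%, 33% and 12.8% had an unadjusted p under 0.05 in these comparisons. The comparisons share libraries with each other and with the ratios above.

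Snhg12 came closest in RNA-seq. It stood at 16.6, 13.8 and 14.8 CPM in WT and at 9.62, 11.8 and 10.8 CPM in KO. The groups did not overlap, with every KO library below every WT library. The log2 difference, KO minus WT, was -0.50 (SE 0.114, interval -0.77 to -0.22, 1.41-fold lower), with an edgeR FDR of 0.0536. The FDR was 0.0472 when the 12 libraries were fitted together, 0.299 with DESeq2, 0.473 in edgeR with a replicate block and 0.0862 to 0.163 with 1 library left out. In footprints Snhg12 stood at 4.20, 5.48 and 4.33 CPM in WT and 5.17, 3.77 and 5.13 CPM in KO, with overlapping groups and a difference of -0.06 (-0.49 to 0.37).

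The differences of Snhg3 had opposite signs in the assays and passed the test in neither. In RNA-seq KO stood at 5.97, 6.13 and 5.98 CPM against 4.75, 4.59 and 4.8 in WT, a log2 difference of 0.35 (-0.05 to 0.75, edgeR FDR = 0.265). In footprints KO stood at 2.86, 2.86 and 3.42 CPM against 3.97, 3.91 and 3.58 in WT, a difference of -0.38 (-0.72 to -0.04, edgeR FDR = 0.12). Neither comparison had overlapping groups, on 14 to 70 reads per library. The interaction was -0.73 (SE 0.221, interval -1.21 to -0.25), 1.66-fold lower footprints per RNA in KO, with an unadjusted p of 0.00595 and an edgeR FDR of 0.207. It ranked 730 from the lowest of 14755 genes.

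Libraries of WT and KO did not overlap for 2 transcripts in RNA-seq (Snhg3 and Snhg12), as for 30.9% of genes, and for 3 in footprints (Snhg3, Snhg5 and Snhg8), as for 38.2% of genes. Both counts sit near the background. Snhg8 stood at 8.05, 7.43 and 9.89 CPM in WT footprints and 6.37, 6.88 and 4.4 in KO, a log2 difference of -0.41 (-0.80 to -0.01, edgeR FDR = 0.142). Snhg5 in KO footprints stood at 12.4, 12.1 and 12.2 CPM, just below the WT libraries, a difference of -0.11 (-0.31 to 0.09).

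**Figure D5:**
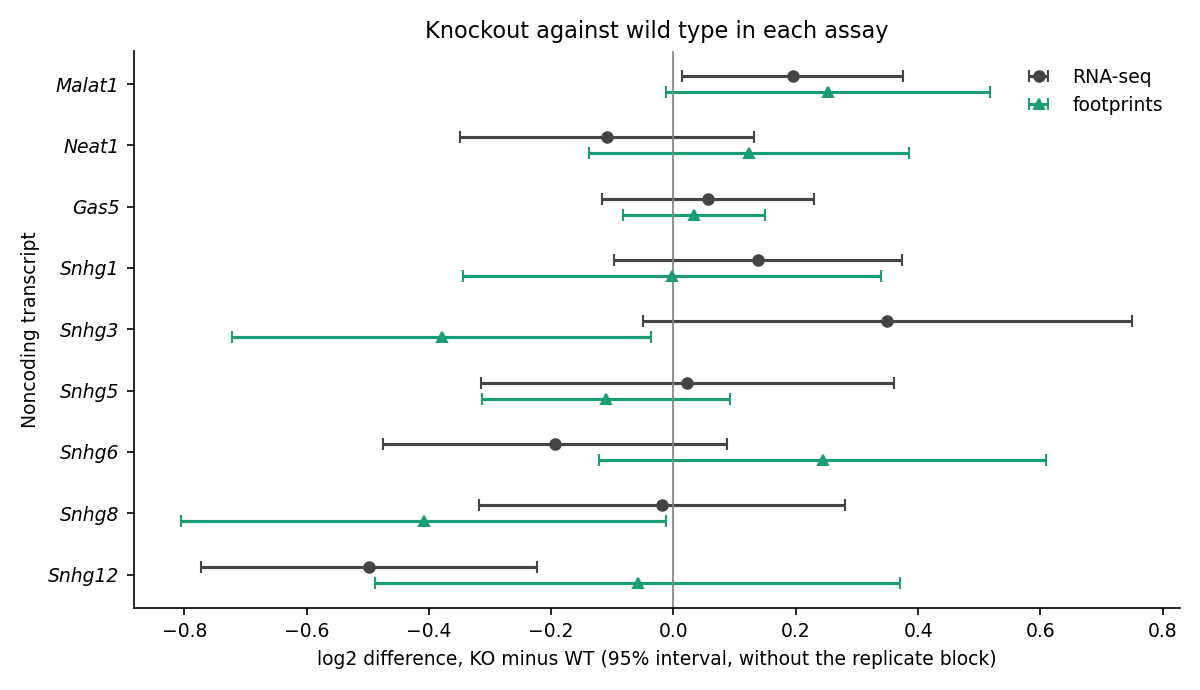
Log2 difference of KO minus WT for each transcript with its 95% interval, circles for RNA-seq and triangles for footprints. Snhg12 in RNA-seq lies furthest below 0 at -0.50, and Gas5 has the narrowest intervals.

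Of the nuclear RNAs, Malat1 had RNA-seq means of 22729 ± 1414 CPM for WT and 26042 ± 1520 CPM for KO (SD, n = 3), with WT library 1 above KO library 1. The log2 difference was 0.19 in RNA-seq (0.01 to 0.38, edgeR FDR = 0.18) and 0.25 in footprints (-0.01 to 0.52, FDR = 0.167), and the interaction was 0.05 (-0.25 to 0.35). Neat1 differed by -0.11 (-0.35 to 0.13) in RNA-seq and 0.12 (-0.14 to 0.39) in footprints.

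Gas5 was the most closely bounded host, at 77.1, 70.5 and 79.7 CPM in KO RNA-seq and 33.5, 32.7 and 31.3 CPM in KO footprints. Its log2 differences were 0.06 (-0.12 to 0.23) in RNA-seq, 0.03 (-0.08 to 0.15) in footprints and -0.03 (-0.23 to 0.17) for the interaction. The remaining hosts were less closely bounded. Snhg1, at 34.1, 40.3 and 39.4 CPM in KO RNA-seq, differed by 0.14 (-0.10 to 0.37) in RNA-seq and by 0.00 (-0.34 to 0.34) in footprints. Snhg6 stood at 11.4, 11.3 and 12.8 CPM in KO RNA-seq and 8.22, 7.01 and 9.78 CPM in KO footprints, and its interaction was 0.44 (0.02 to 0.86, unadjusted p = 0.042, edgeR FDR = 0.367).

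In the authors' deposited table each of the 9 transcripts is listed as not significant in both assays. Its smallest adjusted p among them was 0.073, for Malat1 in footprints at a log2 fold change of 0.23. The authors' deposited table gives Snhg12 in RNA-seq a log2 fold change of -0.36 with an adjusted p of 0.32.

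In the wider gene lists outside the cell type markers, the shares of genes called between KO and WT lay below the shares over all genes. Some marker lists lay above them. In footprints 36.4% of the 11 thymocyte markers were called, with log2 differences of 0.57 for Cd4, 0.23 for Themis, -0.30 for Rag1 and -0.37 for Ptcra. With the replicate number as a block, only Cd4 of these stayed called. In RNA-seq 20% of 5 erythroid, 20% of 5 thymic epithelial and 25% of 4 fibroblast and endothelial markers were called. Nop56, called in footprints, and Nop58, called in neither assay, belong to both the protein-coding hosts and the snoRNP proteins. Neither noncoding list had a call in RNA-seq, footprints or translation by edgeR. In RNA-seq, 3.23% of 31 protein-coding hosts and 5.88% of 34 TOP mRNAs were called, against 6.91% of all genes. In footprints the shares were 9.68% of protein-coding hosts, 16.7% of 12 snoRNP proteins, 6.67% of 15 decay factors and 8.33% of 12 paraspeckle and speckle proteins, against 17.6% of all genes. The protein-coding host called in both assays was Hspa8, a constitutive heat shock chaperone. In RNA-seq, Hspa8 was at 128 ± 25.8 CPM in WT libraries and 19.9 ± 4.75 CPM in KO libraries (SD, n = 3), a log2 difference of -2.72 (edgeR FDR = 0.00223). In footprints it was at 172 ± 29.4 and 11.4 ± 2.43 CPM (edgeR FDR = 0.000235). With the replicate number as a block, Hspa8 stayed called in both assays and no other gene of these lists outside the cell type markers was called in either. Snord87, whose RNA-seq level was 36.7 to 45.6 CPM in WT libraries and 50.8 to 63.2 CPM in KO libraries, had a difference of 0.49 that did not pass the test (edgeR FDR = 0.0536).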

How the data were processed

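The members and the gene lists were chosen with earlier results of these data known. Per the file headers, the authors deposited whole-number read counts for 55335 Ensembl gene rows in each assay, under a name that calls them adjusted, with no word on what was adjusted. Another 5 rows count reads that fell in no gene, in more than 1 gene or at several places, and entered no library total. The submitters' processing notes name Bowtie2 2.5.1, STAR 2.7.10a, HTSeq 2.0.3, DESeq2 1.40.2 and FastQC without their roles. The genome build, the annotation and the strandedness of the counting were not given in the sources used here, so reads of overlapping or antisense genes may not be told apart. The authors also deposited their own comparison of KO with WT per assay (log2 fold changes and adjusted p-values); its 12 columns of per-library values were not used.

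Groups follow the assay and the genotype that each title names. Nothing in the labels ties libraries to separate mice beyond the count of mice, so p-values measure the spread between these libraries, which may be technical. The KO tests without a replicate block take same-numbered WT and KO libraries as independent, although their deviations were mirrored. Their FDRs and shares of genes called carry this limit. Counts were tested with edgeR 4.0.16 (quasi-likelihood test, R 4.3.3), with TMM factors within each assay, filterByExpr at a minimum count of 10 and Benjamini-Hochberg adjustment over all genes tested, and a gene was called at an FDR under 0.05. KO was compared with WT in 6 libraries per assay, the interaction in 12, and footprints with RNA-seq in 6 per genotype. CPM means counts scaled to library size, and 95% intervals come from the fits. Named genes were the 9 members, the tested gene with the highest and lowest WT ratio of each list, the 5 nearest patterns of Malat1 and of the host with most RNA-seq reads (average log2 CPM of at least 3 in both assays), Mir181a-1 and the markers; Hspa8, named for its KO calls, and the snoRNA rows were chosen after their values were seen. The alternatives were RLE factors, library totals, TMM over both assays, no filter, DESeq2 1.42.0, a joint fit, replicate blocks and leaving out each library. Procedures were tested on simulated counts of independent libraries, which lack the mirrored deviations of the deposited counts. Gene classes, neighbours and sequences came from RefSeq (GRCm38.p6), with 7 of 9 members matched to a start window; no transcript length was used, so no level per length was compared between genes. The limits for 0 reads (3 reads) cover counting error only, while the 95% intervals also include the spread between these libraries. Some results on single genes of the lists are not reported here.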

Additional observations from a re-analysis of the deposited data

How the results depend on the processing

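No ratio of the 9 transcripts changed sign under any alternative run, and the number called stayed at 8 in WT and 9 in KO when each library was left out in turn. The exception in a single call was Snhg6 in KO with TMM factors over both assays (-0.305). In WT the ratio of Snhg3, not called in the main fit, came to -0.00793 with those factors. For KO against WT, 0 of 9 were called under all alternatives run except the joint fit of the 12 libraries, which called 1 in RNA-seq, Snhg12. Leaving out each library in turn left the calls at 0 in RNA-seq, footprints and translation. Changes of sign occurred only for differences near 0. Snhg1 in footprints was at 0.00142 with RLE factors, 0.00393 with DESeq2 and 0.000997 with the replicate block, and at -0.13 to 0.118 with 1 library left out. Over libraries left out, the RNA-seq difference ranged from -0.0149 to 0.0735 for Snhg5 and from -0.0987 to 0.0773 for Snhg8, the footprint difference of Snhg12 from -0.182 to 0.134, and the interaction from -0.0795 to 0.0198 for Gas5 and from -0.0337 to 0.118 for Malat1. The cause of these changes was not tested. Same-numbered WT and KO libraries deviated in opposite directions. Over genes of average log2 CPM of at least 3.5 the correlation of their deviations was -0.99 to -0.96 in RNA-seq and -0.99 in footprints. For different numbers it was 0.21 to 0.7 and 0.38 to 0.64. The deviations were thus tied to the number in mirrored form, so same-numbered libraries were not independent. The source of this link is not stated, and whether the numbers pair the samples cannot be told from it. With the replicate block RNA-seq called 0.806% of all genes in place of 6.91% and footprints 3.02% in place of 17.6%, and none of the 9 was called; 1, 0 and 3 of them had an unadjusted p under 0.05 by edgeR in RNA-seq, footprints and translation. Depth limits Snhg3 most, with as few as 14 reads in a library.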

Other observations

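The footprint to RNA ratio was also taken for mRNAs of proteins that work with these RNAs. Of 12 snoRNP proteins, which package and guide snoRNAs, 10 were higher and 1 lower in footprints in WT (33.5% of all genes were called higher and 51.6% lower by edgeR at an FDR under 0.05). Their median log2 ratio was 1.19, with Nolc1, a nucleolar chaperone of these particles, at 1.55 and Snu13, the core protein of box C/D particles, at -3.32. Snu13 rested on 488 RNA-seq and 94 footprint reads over the 12 libraries.

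Of 12 paraspeckle and speckle proteins, 6 were higher and 2 lower, with a median of 0.19, from Pspc1 at -0.85 to the splicing factor Srsf1 at 2.61. Of 15 nonsense-mediated decay factors, 7 were higher and 5 lower, with a median of 0.18. The lowest was Smg1, the kinase that phosphorylates the decay helicase Upf1, at -2.01, and the highest Magoh, a subunit of the exon junction complex, at 3.08.

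Snora73a, within Snhg3, stood at 9.81, 4.86 and 10.4 CPM in WT RNA-seq and at 1.75, 4.71 and 1.5 CPM in KO RNA-seq, with 0 to 0.0649 CPM in the footprint libraries. The WT and KO RNA-seq libraries did not overlap, as for 30.9% of genes, and the nearest were at 4.86 CPM in WT and 4.71 CPM in KO. The log2 difference was -1.83, and it did not pass the test (edgeR FDR = 0.0721). The neighbouring Snora73b did not show that order, at 311, 251 and 303 CPM in WT and 256, 318 and 261 CPM in KO RNA-seq.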
